A study of Rattus norvegicus with 27 samples.

Results

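The actin and tubulin genes described here are 10 genes of the cytoskeleton: Actb, Actg1, Cfl1, Pfn1, Pfn2, Tuba1a, Tubb2a, Tubb3, Tubb4a and Tubb5. They were taken by their rat gene symbol from the 36865 rows of a table of raw read counts, in which the 10 symbols hold 11 rows. Each of 27 male rats of the Wistar strain gave 1 library from its medial prefrontal cortex (mPFC), taken at rest, and the 27 form 1 group with no control. All rats went through a battery of anxiety tests before tissue collection (elevated plus-maze, light-dark and open field). The sample labels also name acoustic startle, fear conditioning and learned helplessness for every rat. The paper differs from the labels here: it describes startle and fear conditioning for a separate Long-Evans cohort and does not mention learned helplessness. Actb and Gapdh were the reference genes of the study's qPCR, so how steady Actb is between rats, and what it moves with, are the questions asked of these counts.

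Actin is a globular protein that assembles into filaments, and in neurons those filaments give dendritic spines and growth cones their shape. Profilins (Pfn1, Pfn2) bind actin monomers and feed them to growing filament ends, whereas cofilin (Cfl1) severs filaments and returns monomers to the pool. Alpha-tubulins such as Tuba1a pair with beta-tubulins (Tubb2a, Tubb3, Tubb4a, Tubb5) to build microtubules, the tracks of axonal and dendritic transport. Free actin monomers hold back the MRTF coactivators of serum response factor (SRF), which binds CArG boxes in the promoters of many actin genes, and Actb is often used as a reference because it is abundant in most tissues.

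The libraries held 4907255 to 12771309 counts. Totals separated by library number: the 16 libraries numbered up to 31 held 4907255 to 8568317 counts and the 11 numbered from 32 held 9404220 to 12771309. This split is not a group of the study and the labels name no batch, so the main relations are also given within the 2 sets or with the set as a covariate. Library 3 stood apart. It was the highest of all 27 libraries in Actb, Actg1, Cfl1, Pfn1, Tuba1a and the oligodendrocyte marker score, and the lowest in the excitatory, inhibitory and pan-neuronal scores, and results that rest on it are given with and without it. All 8 markers of cortical excitatory neurons averaged at least 10 counts, and they summed to between 32597 and 47817 normalized counts per library.

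The start regions of 9 of the 10 genes were available from RefSeq (GRCr8), 250 bases before to 50 bases after the annotated start, and Actb was the gene without one. For Tuba1a the 250 bases (chr7:131995820-131996069) lie inside the gene span given below and not before it. Those of Actg1 and Pfn1 are shown because the counts of both genes followed Actb, and those of Tubb3 and Tubb5 because these genes followed each other. Each line gives the 250 bases before the start, 5′ to 3′ on the gene's strand. Capitals mark CArG boxes, CCAAT boxes (CCAAT), TATA boxes (TATAAA) and GC boxes (GGGCGG), searched on both strands.
Actg1, minus strand, chr10:106120952-106121201: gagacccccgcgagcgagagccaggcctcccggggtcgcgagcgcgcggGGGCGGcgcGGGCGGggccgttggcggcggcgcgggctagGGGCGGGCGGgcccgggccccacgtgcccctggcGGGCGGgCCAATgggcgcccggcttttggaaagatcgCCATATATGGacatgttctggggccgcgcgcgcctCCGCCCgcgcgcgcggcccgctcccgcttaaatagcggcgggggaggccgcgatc
Pfn1, minus strand, chr10:55866588-55866837: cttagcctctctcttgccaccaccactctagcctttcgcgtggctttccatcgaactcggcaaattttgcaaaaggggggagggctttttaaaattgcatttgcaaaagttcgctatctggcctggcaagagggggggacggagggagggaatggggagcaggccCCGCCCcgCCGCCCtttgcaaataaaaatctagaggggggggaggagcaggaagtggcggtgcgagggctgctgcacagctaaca
Tubb3, plus strand, chr19:68365437-68365686: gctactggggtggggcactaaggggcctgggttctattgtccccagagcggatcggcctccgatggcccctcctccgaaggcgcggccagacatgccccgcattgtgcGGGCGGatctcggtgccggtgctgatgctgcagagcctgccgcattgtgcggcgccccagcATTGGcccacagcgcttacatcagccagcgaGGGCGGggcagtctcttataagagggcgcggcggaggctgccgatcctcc
Tubb5, plus strand, chr20:2917327-2917576: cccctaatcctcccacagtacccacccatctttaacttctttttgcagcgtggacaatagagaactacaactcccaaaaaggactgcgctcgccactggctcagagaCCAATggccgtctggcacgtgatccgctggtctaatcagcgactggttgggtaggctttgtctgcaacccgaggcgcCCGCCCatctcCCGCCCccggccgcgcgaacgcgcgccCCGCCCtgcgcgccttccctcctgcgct

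Of the 9 start regions, 1 held a CArG box, that of Actg1, at bases -90 to -81, and it reads the same on both strands. A CArG box lay in 1.64% of 33469 rat start regions of the same length. GC boxes lay in 8 of the 9, against 33.1% of all start regions, and CCAAT boxes in 5 of the 9, against 37.5%. The 9 regions held from 58.3% (Tuba1a) to 79.7% (Pfn2) G and C, against a median of 51.7% over all start regions. The motif shares were not adjusted for this. A TATA box was found in the Tubb2a region alone, against 14.2% of all. Neighbouring GC boxes overlap each other once in Actg1 and once in Cfl1, and a match is a run of letters, not a shown binding site.

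Of the 10 genes, 9 had counts in every library. Their share of all counts lay between 0.749% and 1.11%, with a median of 0.798%. The exception was Tubb2a (gene ID 498736, chr17:31002186-31006057), a beta-tubulin of neurons, whose 2 rows held 0 counts in all 27 libraries. A count of 0 allows a share of up to 6.11e-05% in the shallowest and 2.35e-05% in the deepest library, for counting error only. The table splits 204 genes over 436 rows, and 87.8% of those rows had no count, compared with 59.1% of all rows. The close paralog Tubb2b had 1648 ± 104 normalized counts (SD, n = 27). An absence of Tubb2a RNA and a loss of its reads in counting cannot be told apart here. Counts of the other close relatives (Actb, Actg1 and Acta1, and Tuba1a, Tuba1b and Tuba1c) are uncertain for the same reason.

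Values below are normalized counts: read counts divided by the size factor of their library. They are not per transcript length, so levels are compared between rats for 1 gene and not between genes. Among the actins, Actb (gene ID 81822, chr12:16776664-16779634), the cytoplasmic beta-actin, had 11640 normalized counts in its lowest library, a median of 12633 and 20927 in its highest. The mean was 13553 ± 2078 (SD, n = 27). The highest value was that of library 3, and the next library had 15994. Actg1 (gene ID 287876, chr10:106118106-106120951), the cytoplasmic gamma-actin, ran from 5605 through a median of 6195 to 8736, again with library 3 at the top.

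Among the actin-binding genes, Pfn1 (gene ID 64303, chr10:55863882-55866587) varied most. Its lowest library had 1440 normalized counts, its median was 2234 and its highest library, library 3, had 8730, a 6.06-fold range. The next library had 4812. The paralog Pfn2 (gene ID 81531, chr2:144217100-144222936), the main profilin of neurons, ran from 2956 through 3711 to 4335, a 1.47-fold range. Cfl1 (gene ID 29271, chr1:212227124-212230656) ran from 8768 through 10393 to 13104. The SD of the log2 level of Pfn1 was 0.72 over all libraries, 0.64 without library 3, 0.57 in the libraries up to 31 and 0.095 in those from 32. That of Pfn2 was 0.16, 0.16, 0.15 and 0.13, so that the larger spread of Pfn1 over all libraries turned round in the libraries from 32.

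Among the tubulins, Tuba1a (gene ID 64158, chr7:131992151-131996850) ran from 8510 through a median of 9962 to 17190 normalized counts. Tubb3 (gene ID 246118, chr19:68365687-68374741), the beta-tubulin that marks neurons, ran from 4656 through 5703 to 6732. Tubb4a (gene ID 29213, chr9:2004836-2012281), a beta-tubulin abundant in brain, ran from 7020 through 8756 to 11603. The narrowest range of the tubulins as a fold was that of Tubb5 (gene ID 29214, chr20:2917577-2921726), a widely expressed beta-tubulin. It ran from 7158 through 8275 to 9417, or 1.32-fold, against 1.45-fold for Tubb3. Gapdh, the glycolytic enzyme used as the other reference, ran from 4223 through 4825 to 5440.

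**Figure D1:**
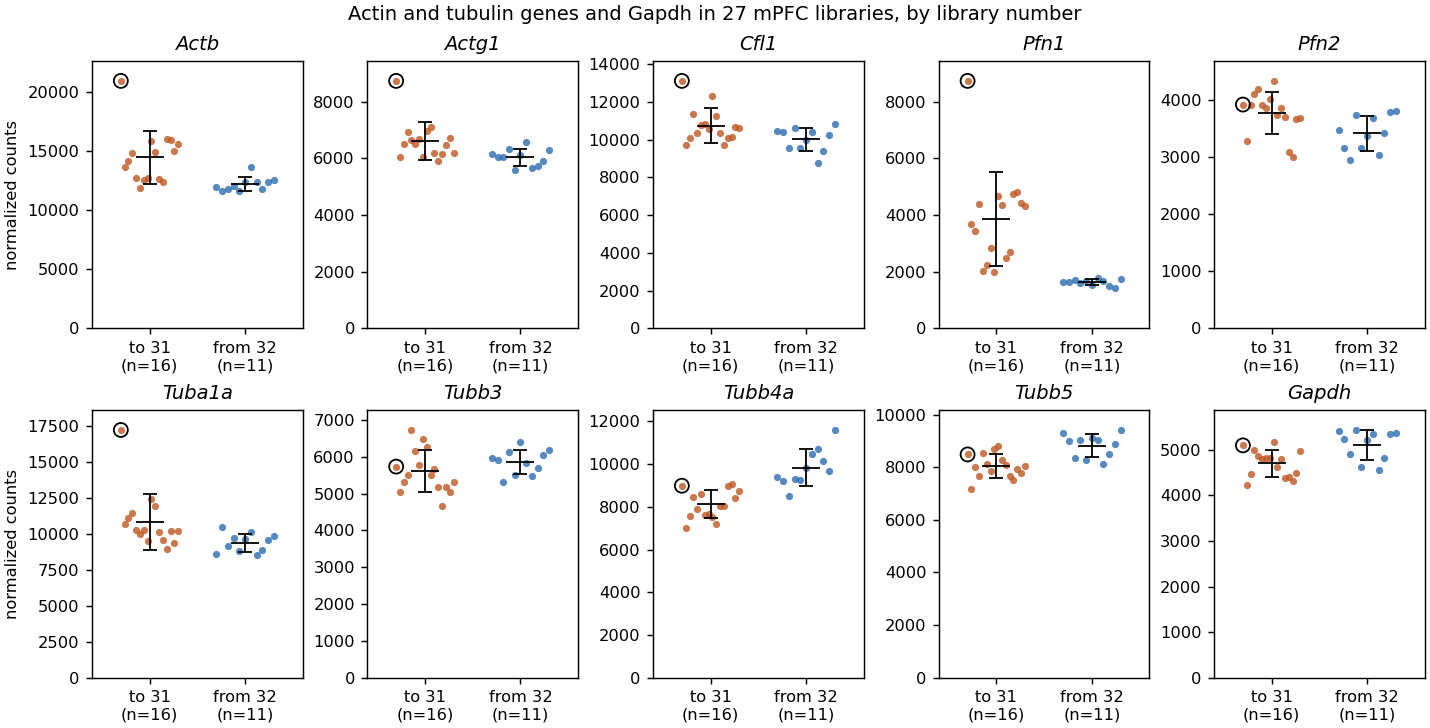
Normalized counts of 9 actin and tubulin genes and Gapdh in each library, on axes that start at 0, split by library number (orange, up to 31, n = 16; blue, from 32, n = 11), with bars for the mean ± SD and a ring around library 3. Pfn1 spans 1440 to 8730 while Tubb5 spans 7158 to 9417.

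Spread on the log2 scale put the genes in order. The SD of log2(normalized count + 1) was 0.10 for Tubb5, 0.11 for Gapdh, 0.12 for Cfl1, 0.13 for Tubb3 and Actg1, 0.16 for Pfn2, 0.18 for Tubb4a, 0.20 for Actb and Tuba1a, and 0.72 for Pfn1. The median over the 2048 genes averaging 1000 normalized counts or more was 0.13. Actb was more spread than 85.3% of those genes and Pfn1 than 99.4%. Without library 3 the SD of Actb was 0.16, and within the libraries from 32 it was 0.07. All 9 genes varied beyond counting error in the chi-square dispersion test, as did 89.8% of the 11730 genes tested, so this does not set them apart. Counting error made up between 0.107% (Pfn1) and 2.53% (Pfn2) of the variance of the 9 genes.

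The sets of libraries differed in several of these genes, in both directions. Pfn1 was lower in the libraries from 32, with 1634 ± 106 normalized counts (SD, n = 11) against 3864 ± 1656 (SD, n = 16), and the lowest of the libraries up to 31 (1974) lay above the highest of those from 32 (1783). Such a complete separation was seen in 0.281% of 11730 genes, and the opposite one in 0.0426%. Actb was lower too, at 12208 ± 585 against 14478 ± 2240, and 10 of the 16 libraries up to 31 lay above every library from 32. Tubb4a went the other way, at 9832 ± 859 against 8118 ± 655 (SD, n = 11 and 16).

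In edgeR's quasi-likelihood test, 6 of the 9 genes differed between the sets at an adjusted p under 0.05, compared with 18.3% of 11292 genes tested. The log2 difference, libraries from 32 minus libraries up to 31, was -1.24 ± 0.17 (SE) for Pfn1 (adjusted p = 1.5e-05, edgeR). It was -0.25 ± 0.07 for Actb (adjusted p = 0.0086, edgeR), -0.21 ± 0.07 for Tuba1a (adjusted p = 0.041) and -0.13 ± 0.05 for Actg1 (adjusted p = 0.047). Tubb4a was higher by 0.28 ± 0.05 (adjusted p = 0.00014, edgeR) and Tubb5 by 0.13 ± 0.03 (adjusted p = 0.0042). Gapdh moved with Tubb5, by 0.12 ± 0.04 (adjusted p = 0.021, edgeR). Cfl1, Pfn2 and Tubb3 were not called. The same 6 were called without library 3, against 19.2% of genes. Over all libraries 9.05% of genes were higher and 9.3% lower in the libraries from 32. With no filter on low counts 4 of the 9 were called. Library number, depth and anything else that changed along the numbering cannot be told apart.

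The genes did not move as 1 block. Over the 36 pairs of the 9 genes, Spearman's rho between rats had a median of 0.27 and ran from -0.63 to 0.85, with 24 pairs positive and 12 negative. Over pairs of the 2048 genes averaging 1000 normalized counts or more the median was 0.03. Pairs share libraries, so these are descriptions. The highest pair was Actb with Pfn1 (rho = 0.85, Pearson's r = 0.92). Leaving out the 2 libraries farthest from the median of Actb gave r = 0.89. Within the libraries up to 31 rho was 0.89, and within those from 32 it was 0.20, where both genes varied little.

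Actg1 and Cfl1 kept together in both sets, with rho of 0.82 over all libraries (r = 0.88), 0.85 up to 31 and 0.82 from 32. Pfn2 followed Tubb3 more closely within the sets (rho of 0.83 and 0.74) than over all libraries (0.53). Tubb3 and Tubb5 made another close pair, with rho of 0.81 over all libraries (r = 0.77) and 0.86 and 0.85 within the sets. The lowest pair was Pfn1 with Tubb5 (rho = -0.63, r = -0.56), but within the sets rho was only -0.21 and -0.01. In edgeR's test across the table Tubb5 fell with Pfn1 (adjusted p = 0.026), and not with the set of libraries as a covariate (adjusted p = 0.97). Regressing the set out of each gene raised the median of the 36 pairs to 0.37, with 27 positive, and within the libraries from 32 alone it was 0.47, with 31 positive.

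**Figure D2:**
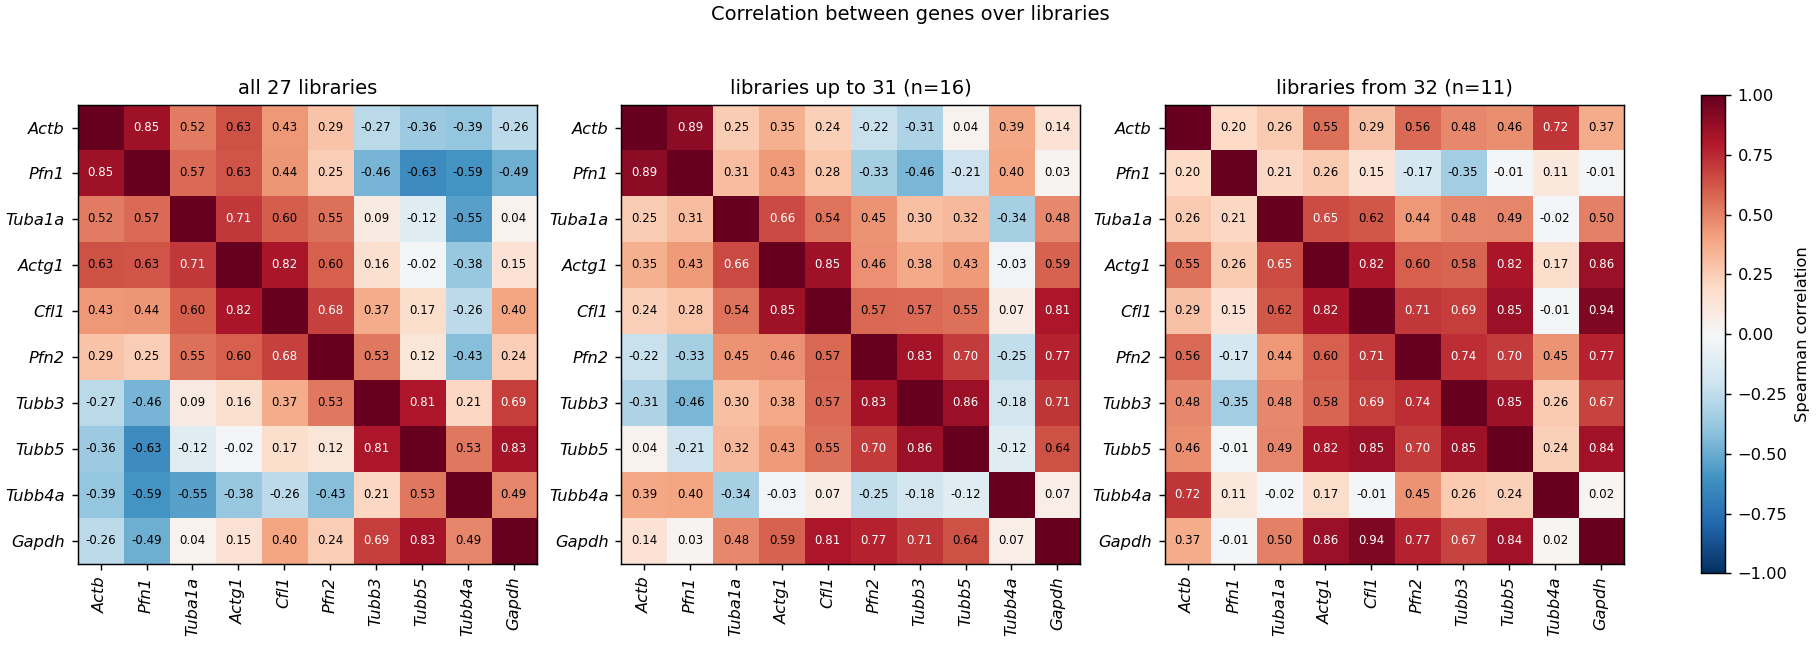
Spearman correlation over libraries between 9 actin and tubulin genes and Gapdh (both axes), for all 27 libraries and within each set by library number, with red for positive and blue for negative values. Actb and Pfn1 reach 0.85 over all libraries, and Pfn1 and Tubb5, at -0.63 over all libraries, lie at -0.21 and -0.01 within the sets.

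Gapdh kept to Tubb5 and Tubb3 over all libraries, and not to Actb. The Spearman correlation was 0.83 between Gapdh and Tubb5 (r = 0.86, and 0.82 without the 2 libraries farthest from the median of Tubb5) and 0.69 between Gapdh and Tubb3. It was -0.26 between Gapdh and Actb (r = -0.18). Within the sets Gapdh and Tubb5 had rho of 0.64 and 0.84, whereas Gapdh and Actb had 0.14 and 0.37. Gapdh was also close to Cfl1 within the sets (0.81 and 0.94), against 0.40 over all libraries. The same was seen for Pfn2 (0.77 and 0.77, against 0.24) and Actg1 (0.59 and 0.86, against 0.15). Within the sets its relation to Tubb5 and Tubb3 was therefore not particular to them.

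The ratio of the study's 2 reference genes was therefore not steady. Actb over Gapdh was 2.21 in its lowest library, 2.62 at the median and 4.10 in its highest, library 3, a 1.86-fold range, and without library 3 the highest was 3.69. In 11 of the 16 libraries up to 31 the ratio exceeded every value of the libraries from 32, which ran from 2.21 to 2.72. Tubb5 over Gapdh ran from 1.54 through 1.71 to 1.84. Its SD on the log2 scale was 0.06, compared with 0.25 for Actb over Gapdh (0.22 without library 3). Tubb5 and Gapdh are a closely correlated pair, so 0.06 is a low value to compare with. The mean SD of the log2 ratio of Gapdh to 12 other common reference genes was 0.19. Actb over Actg1, the ratio of the 2 cytoplasmic actins, ran from 1.82 to 2.60.

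**Figure D3:**
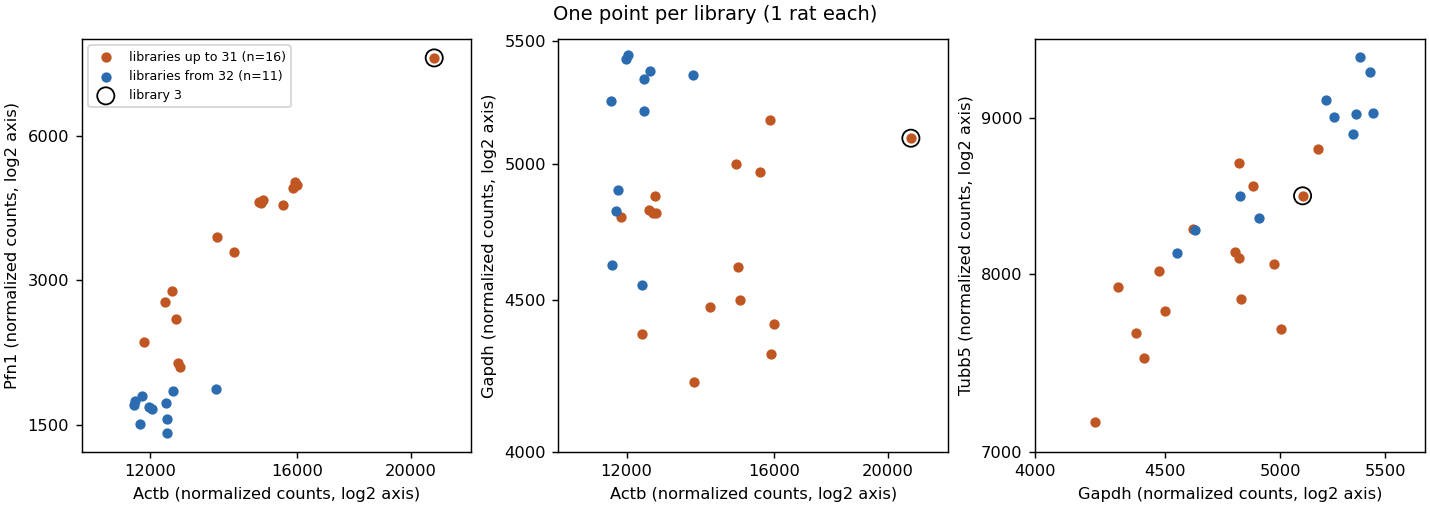
Normalized counts of Actb against Pfn1, Actb against Gapdh and Gapdh against Tubb5, 1 point per library, on log2 axes (orange, libraries up to 31; blue, from 32; ring, library 3). Pfn1 climbs with Actb (rho = 0.85), Gapdh does not (rho = -0.26) and Tubb5 follows Gapdh (rho = 0.83).

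Each gene was next set against a list of 13 common reference genes, by the SD of the log2 ratio to each of them. Among 22 genes, these 13 and the 9 actin and tubulin genes, Cfl1 had the lowest mean SD (0.15) and Actg1 the next (0.16). Tubb5 took place 9, Gapdh place 12, Actb place 16 (0.20) and Pfn1 place 22 (0.67). Without library 3 the mean SD was 0.185 for Actb and 0.187 for Gapdh, so the order of these 2 genes turned round, by a small margin. All ratios come from the same libraries, so the order is a description.

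What moved with Actb was tested across the whole table, as the log2 change of each gene per 1 SD of the log2 level of Actb (0.20 over all libraries). Without library 3 the SD was taken again over the libraries left (0.16), so a change per SD given without that library is per a smaller step of Actb, and the 2 sizes are not in the same unit. Of the 8 other genes, 4 rose with Actb and none fell, compared with 26.9% of 11291 genes called in either direction (14.9% higher, 12% lower). Pfn1 rose most, by 0.66 ± 0.05 (SE, adjusted p = 6.2e-11, edgeR). Tuba1a rose by 0.16 ± 0.02 (adjusted p = 9.3e-06, edgeR), Actg1 by 0.10 ± 0.02 (adjusted p = 2.0e-05) and Cfl1 by 0.08 ± 0.02 (adjusted p = 0.0011). Pfn2 (0.04 ± 0.03), Tubb3 (-0.04 ± 0.02), Tubb4a (-0.04 ± 0.03), Tubb5 (-0.03 ± 0.02) and Gapdh (-0.02 ± 0.02) were not called.

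These calls rested in part on library 3. Without it 810 genes followed Actb (7.18% of 11274, with 6.25% higher and 0.931% lower) in place of 3041, and 3 of the 8 genes did: Pfn1 (0.57 ± 0.05, adjusted p = 5.9e-09, edgeR), Actg1 (0.06 ± 0.02, adjusted p = 0.032) and Tuba1a (0.08 ± 0.02, adjusted p = 0.040). Cfl1 was lost (0.05 ± 0.02, adjusted p = 0.12, edgeR). With the set of libraries as a covariate 5 of the 8 genes rose, against 32.6% of genes, the added one being Tubb4a (0.07 ± 0.03, adjusted p = 0.048, edgeR), whose fitted change was below 0 without the covariate. With the covariate and without library 3, Pfn1 alone stayed called (0.40 ± 0.04, adjusted p = 1.7e-06, edgeR), against 10.3% of genes. No gene was called for a slope on Actb that differed between the sets (0 of 11291, or 0%, in edgeR's interaction test, 579 at an unadjusted p under 0.05). Actb varied little in the libraries from 32 (SD 0.07), which leaves its slopes there poorly determined, so the lack of calls does not show equal slopes. For Pfn1 the slope from 32 on was lower by 0.45 ± 0.14 (adjusted p = 0.95, edgeR).

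The same test with each other gene in place of Actb gave other counts. With Actg1 5 of the 8 other actin and tubulin genes rose, against 33.9% of all genes called (11.4% without library 3, when 5 rose). With Cfl1 5 rose, against 33.5% (18.2% without library 3, when 3 rose). With Tuba1a 5 rose, against 33.7% (17.3% without library 3, when 5 rose and 1 fell). With Pfn1 4 rose and 2 fell, against 24.5% (13.9% without library 3, when 3 rose and 3 fell), and with Pfn2 4 rose, against 21.3% (23.6% without library 3, when 4 rose). Once the set of libraries was a covariate, 5 rose with Actg1 (30.4% of genes called), 7 with Cfl1 (30.4%) and 4 with Tuba1a (29%). For Pfn1 4 then rose and none fell (35.8%), and Tubb4a went from -0.08 to 0.07 (adjusted p = 0.14, edgeR). For Pfn2 3 then rose (13.6%), with Tuba1a lost (adjusted p = 0.24, edgeR) and Tubb5 gained (adjusted p = 0.016).

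Over all libraries fewer genes were called with the beta-tubulins and Gapdh than with Actb, but for the beta-tubulins this order rested on library 3: without it Actb called 7.18% of genes, fewer than each of them, and still more than Gapdh. With Tubb4a 1 of the 8 rose, against 11.5% of genes (16.8% without library 3, when 1 rose and 2 fell). With Tubb5 2 rose, against 6.11% (10.4% without library 3, when 2 rose and 1 fell). With Tubb3 1 rose, which was Tubb5 (adjusted p = 0.010, edgeR), against 3.83% (7.48% without library 3, when 1 rose and 1 fell). With Gapdh 2.06% of genes were called, and 5.36% without library 3. Adding the set of libraries as a covariate moved these counts as well. Genes called with Gapdh went from 233 to 1571, those with Tubb3 from 433 to 915, those with Pfn2 from 2403 to 1536, and those with Tubb4a from 1303 to 0 (940 at an unadjusted p under 0.05, edgeR).

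Over the 8614 genes averaging 100 normalized counts or more, rho with Actb had a median of -0.04. The 5 genes most like Actb were Pcbp2 (rho = 0.90), Eif1 (0.87), Hnrnpf (0.87), Cdc42 (0.86) and Capzb (0.86). Pcbp2 and Hnrnpf encode RNA-binding proteins, Eif1 a factor that finds the start codon, Cdc42 a small GTPase that drives actin assembly, and Capzb the beta subunit of the protein that caps filament ends. Pfn1 came at place 8. Within the libraries from 32 rho fell to 0.26 for Hnrnpf and 0.54 for Eif1 and stayed at 0.81 for Capzb. The 5 least like Actb were Eeig2 (rho = -0.73), Adrb1 (-0.72), Sec24b (-0.69), Rptor (-0.67) and Rufy2 (-0.67). Within the libraries from 32 rho was only -0.13 for Adrb1, -0.17 for Sec24b and -0.055 for Rufy2, and -0.47 for Eeig2 and -0.45 for Rptor. Adrb1 is the beta-1 adrenergic receptor, Sec24b a subunit of the COPII vesicle coat and Rptor a subunit of mTOR complex 1.

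The wider actin pathway was read from lists chosen with earlier results of these data known. Over all genes tested 14.9% rose and 12% fell with Actb, and without library 3 6.25% rose and 0.931% fell, and the counts below stand beside these shares. Of the other actins, Acta1, the alpha-actin of skeletal muscle, had 276 to 3305 normalized counts with a median of 561. It rose with Actb by 0.90 ± 0.08 (adjusted p = 8.9e-10, edgeR; rho = 0.83), and by 0.80 per the smaller SD without library 3 (adjusted p = 2.9e-08). Its fit on Pfn1 was tighter (1.00 ± 0.02 per 1 SD of Pfn1, adjusted p = 5.0e-24, edgeR). Acta1 was lower in the libraries from 32 (log2 difference -1.81 ± 0.23, adjusted p = 7.1e-06, edgeR). Acta2 was tested and not called, and Actc1, Actg2 and Actbl2 were too low to test (rho of Actbl2 with Actb -0.40 at a mean of 0.32 normalized counts).

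The Arp2/3 complex starts new branches on actin filaments. In the list of its subunits and activators 9 of 15 genes rose with Actb and 1 fell, and without library 3, 5 rose and none fell. With the set of libraries as a covariate 8 rose and 4 fell, against 17% and 15.6% of all genes, the falls being Actr2, the other actin-related core subunit, and the activators Wasl, Cyfip2 and Nckap1, named after their values were seen. Actr3, a core subunit, rose by 0.17 ± 0.02 (adjusted p = 2.7e-07, edgeR; rho = 0.84) and stayed called without library 3 (adjusted p = 4.0e-05). Cyfip2, a subunit of the WAVE complex that activates Arp2/3, fell by 0.10 on the log2 scale (-0.10 ± 0.02, adjusted p = 0.0035, edgeR; rho = -0.34), a call lost without library 3 (adjusted p = 0.17).

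Of the genes that cap or crosslink filaments, 10 of 16 rose with Actb and none fell, and 6 rose without library 3. Coro1c fell and 8 rose with the set of libraries as a covariate. Capzb rose by 0.12 ± 0.01 (adjusted p = 1.0e-08, edgeR). Dbn1, the drebrin of dendritic spines, had the lowest rho of the list (-0.38) and was not called (-0.06 ± 0.03, adjusted p = 0.096, edgeR). Of 13 genes that bind monomers or sever filaments, 7 rose and 3 fell, 4 rose and none fell without library 3, and 5 rose and 2 fell with the set of libraries as a covariate. Cap1, which recycles actin monomers, rose by 0.09 ± 0.02 (adjusted p = 0.00016, edgeR; rho = 0.78). Limk1, the kinase that inactivates cofilin, fell by 0.08 on the log2 scale (-0.08 ± 0.03, adjusted p = 0.027, edgeR, rho = -0.48). The call was lost without library 3 (adjusted p = 0.073, edgeR) and with the set of libraries as a covariate (-0.05, adjusted p = 0.26).

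Some genes of these lists had far larger fitted changes than Actg1, and they were singled out after their values were seen. The thymosins Tmsb4x and Tmsb10, which sequester actin monomers, rose with Actb by 0.42 ± 0.04 and 0.46 ± 0.04. The Arp2/3 subunit Arpc1b rose by 0.77 ± 0.07 and the crosslinker Flna by 0.64 ± 0.07. Among the tubulins Tubb6 rose by 0.92 ± 0.09. All 5 stayed called without library 3 and with the set of libraries as a covariate, the highest adjusted p of these fits being 2.6e-05 (edgeR). Each of the 5 also rose with Pfn1, with a lower adjusted p than with Actb (from 1.7e-19 for Arpc1b to 4.2e-12 for Flna, edgeR). They are thus no closer to Actb than to Pfn1. All 5 were also lower in the libraries from 32, with log2 differences from -1.87 (Tubb6) to -0.78 (Tmsb4x).

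Of the SRF axis, 2 of 8 genes rose with Actb, and both stayed called without library 3. Here 3 rose and none fell with the set of libraries as a covariate. Srf itself rose by 0.10 ± 0.02 (adjusted p = 0.00053, edgeR; rho = 0.63, and adjusted p = 0.019 without library 3), and the other was Vcl, vinculin, an actin linker at cell contacts (0.18 ± 0.03, adjusted p = 2.3e-06, and 0.11 without library 3, adjusted p = 0.0048, edgeR). Fhl2 had the lowest rho of the list (-0.10) and was not called (adjusted p = 0.96, edgeR). The rows of Mrtfa and Mrtfb, the coactivators themselves, held no count.

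Of the microtubule lists, which were not tested against the actin lists, the tubulins come first. Of 10 other tubulins 3 rose and none fell: Tuba1b, Tuba1c and Tubb6. Tubg2 rose as well and Tubd1 fell with the set of libraries as a covariate. Tuba1c had the highest rho (0.80) and rose by 0.28 ± 0.03 (adjusted p = 3.0e-09, edgeR; 0.17 without library 3), and Tube1 the lowest (-0.23, not called). Tuba1b was lost without library 3 (adjusted p = 0.15, edgeR). Of 14 genes of tubulin folding 2 rose, in both cases also without library 3: Cct3, a subunit of the chaperonin that folds actin and tubulin (0.09 ± 0.01, adjusted p = 5.7e-06, edgeR; rho = 0.84), and Tbca, a tubulin cofactor. Tbce had the lowest rho there (-0.39, not called). In this list 3 rose and 1 fell with the set of libraries as a covariate. Of 18 microtubule-associated genes 2 rose and 4 fell, and none in either direction without library 3. The 6 calls are a share near that of all genes (26.9%). With the set of libraries as a covariate 2 rose and 6 fell, against 32.6% of all genes called. Stmn1, a microtubule destabilizer, had the highest rho (0.39) and Map6, a stabilizer, the lowest (-0.48).

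**Figure D4:**
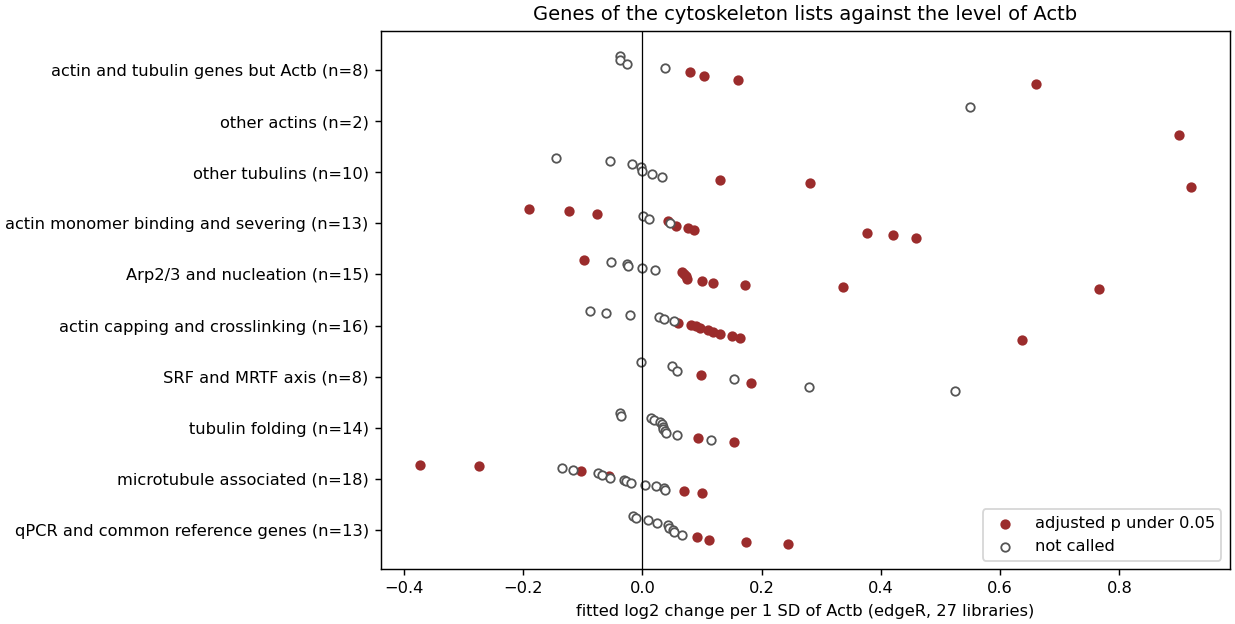
Fitted log2 change per 1 SD of Actb (horizontal axis) of the actin and tubulin genes and of 9 lists of genes (rows), 1 point per gene, filled where the adjusted p was under 0.05. Called genes of the capping list all lie right of 0 (10 of 16), whereas the microtubule-associated list has 2 called right and 4 called left of 0.

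Of the 13 reference genes 4 rose with Actb and none fell. Rplp0, a ribosomal protein, had the highest rho (0.64) and rose by 0.17 ± 0.02 (adjusted p = 1.4e-06, edgeR; 0.10 without library 3), and Gapdh the lowest (-0.26, not called). Without library 3, 2 of the 13 were called, and 5 rose with the set of libraries as a covariate.

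Marker scores and library measures were set against Actb by permutation (100000 permutations, two-sided, 16 relations, Benjamini-Hochberg). A marker score is the mean z score of the markers of a cell type, and in bulk tissue fewer cells of a type and less RNA per cell cannot be told apart. Actb was higher where the total count was lower (rho = -0.76, r = -0.72, permutation p adjusted for rho 0.00048), and where fewer genes were detected (rho = -0.68, r = -0.69, adjusted p = 0.0011, permutation). It was also higher where Bc1, a short neuronal RNA, took a larger share of counts (rho = 0.60, r = 0.66, adjusted p = 0.0052, permutation). With the share of 18S ribosomal RNA rho was 0.59 (adjusted p = 0.0052, permutation) but r was only 0.22 (adjusted p = 0.52). These 4 held without library 3 and without the 2 libraries farthest from the median of the measure.

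By rho none of the 16 relations passed the threshold within either set of libraries. For the total count rho was -0.65 in the libraries up to 31 (adjusted p = 0.12, permutation, n = 16) and 0.10 in those from 32 (adjusted p = 0.84, permutation, n = 11). For Bc1 it was 0.54 and -0.22. With the set regressed out of both measures none passed by rho, and the total count had rho of -0.51 (adjusted p = 0.10, permutation). Pearson's r gave another count. With the set regressed out the total count (r = -0.52, adjusted p = 0.043, permutation), the Bc1 share (r = 0.49, adjusted p = 0.050, permutation, just under the threshold) and the excitatory neuron score (r = -0.66, adjusted p = 0.0061, permutation) passed, and the last did so within the libraries up to 31 (r = -0.71, adjusted p = 0.025, permutation, n = 16).

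Of the 12 cell type and activity scores, the excitatory neuron score alone passed for Actb by rho (rho = -0.47, r = -0.67, adjusted p for rho 0.048, permutation), and not without library 3 (rho = -0.40, adjusted p = 0.13, permutation; r = -0.46, adjusted p = 0.067). Under TMM scaling it missed the threshold (adjusted p = 0.055, permutation), and under total-count scaling the pan-neuronal score passed too (rho = -0.63, adjusted p = 0.0036, permutation). By r the inhibitory (r = -0.61, adjusted p = 0.0052, permutation) and pan-neuronal scores (r = -0.51, adjusted p = 0.014, permutation) passed as well, with rho of -0.26 and -0.44. The microglia and macrophage score (rho = 0.09), the endothelial score (0.015), the mural score (0.03), the astrocyte score (0.22) and the immediate early score (0.24) did not. For Gapdh the pan-neuronal score passed (rho = 0.58, r = 0.63, adjusted p = 0.020, permutation) and stayed so without library 3 (rho = 0.66, adjusted p = 0.0038). So did the mural score (rho = -0.57, adjusted p = 0.020, permutation), which was lost without the 2 libraries farthest from its median (adjusted p = 0.067, permutation).

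**Figure D5:**
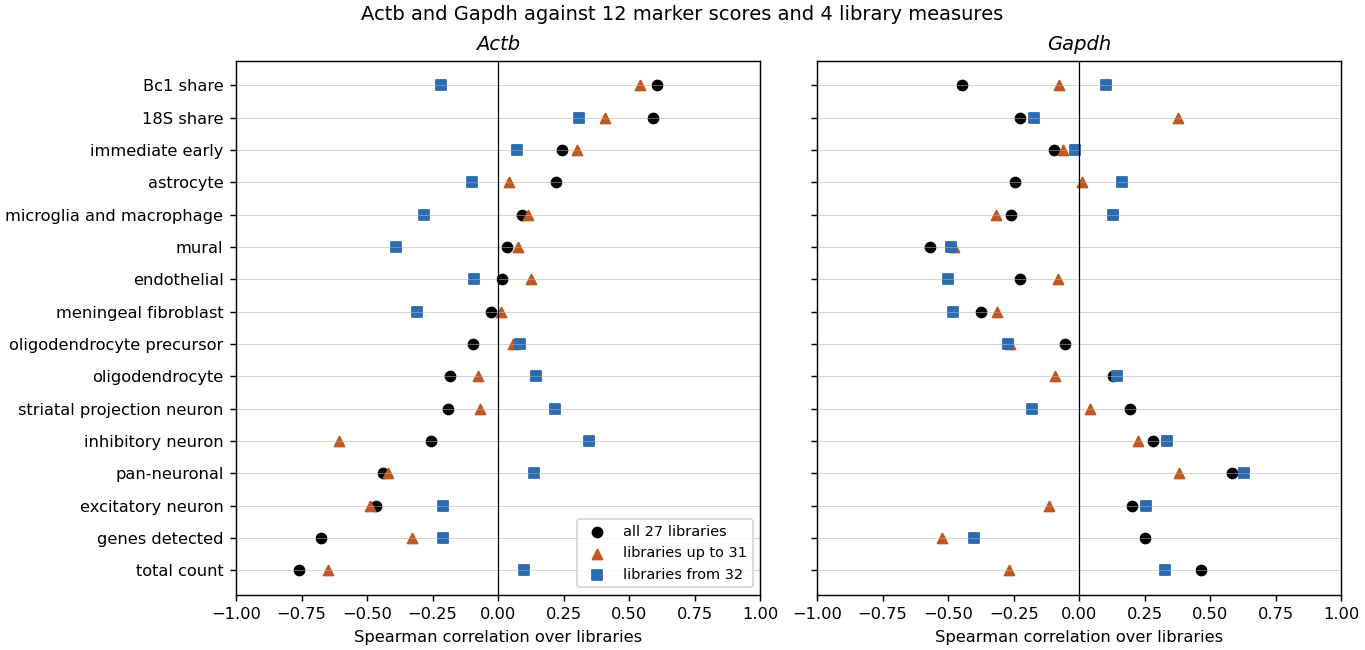
Spearman correlation (horizontal axis) of Actb and Gapdh with 12 marker scores and 4 library measures (rows), for all 27 libraries (black) and within the libraries up to 31 (orange) and from 32 (blue). Actb lies at -0.76 for the total count and 0.60 for the Bc1 share over all libraries, and at 0.10 and -0.22 in the libraries from 32.

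The marker scores were also used as covariates across the whole table, and actin and tubulin genes were called on the excitatory, inhibitory and pan-neuronal scores. With the excitatory score, 5 of the 9 genes fell, Actb, Actg1, Cfl1, Pfn1 and Tuba1a, against 31.2% of genes called. The changes per 1 SD of the score ran from -0.44 ± 0.09 for Pfn1 (adjusted p = 0.00066, edgeR) to -0.06 ± 0.02 for Cfl1 (adjusted p = 0.013), and Actb changed by -0.14 ± 0.03 (adjusted p = 0.00036). The same 5 fell with the set of libraries as a covariate, against 33% of genes, but without library 3 none of the 9 was called, against 9.2% of genes. With the pan-neuronal score, Tubb3 rose by 0.09 ± 0.02 (adjusted p = 0.0055, edgeR) and Tubb5 by 0.06 ± 0.02 (adjusted p = 0.026), and Actb and Pfn1 fell, against 8.87% of genes. Without library 3 the rises of Tubb3 (adjusted p = 0.0048, edgeR) and Tubb5 (adjusted p = 0.023) stayed, and Actb and Pfn1 were lost, against 3.45% of genes. With the set of libraries as a covariate Tubb3 rose and Pfn1 fell, and Tubb5 and Actb were lost, against 11.1% of genes.

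With the inhibitory score Actb, Pfn1 and Tuba1a fell and Tubb3 rose, against 17.4% of genes. With the set of libraries as a covariate the 3 falls stayed and Tubb3 was lost, against 20.8%, and without library 3 Tubb3 alone stayed (0.08 ± 0.02, adjusted p = 0.048, edgeR), against 0.701%. None of the 9 genes followed any of the other 9 scores, oligodendrocyte, astrocyte and microglia included, in edgeR's test with all libraries or without library 3. With all libraries those scores called few genes of the table: 1.77% for oligodendrocytes, 0.974% for their precursors, 1.9% for astrocytes, 0.797% for microglia and macrophages, 0.301% for endothelial and 1.69% for mural cells, 1.98% for meningeal fibroblasts, 0.0531% for striatal projection neurons and 0.142% for immediate early genes. Over the 108 combinations of gene and score, 13 were called with all libraries, 10 with the set as a covariate and 3 without library 3.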

How the data were processed

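The authors deposited raw read counts per gene for 27 mPFC libraries, not normalized. The submitters' processing notes name Trimmomatic, STAR and HTSeq without versions; the genome build and strandedness are not given in the sources used here. Reads of paralogs, overlapping or antisense genes could be misassigned. The labels and the study's methods give different library kits.

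Gene IDs were named from RefSeq (GRCr8). Counts were divided by DESeq2 size factors (version 1.42.0), and log2(normalized count + 1) was used for levels, spread and correlations. Covariate fits used edgeR 4.0.16 (filterByExpr, TMM, quasi-likelihood F test) with Benjamini-Hochberg adjustment over all genes tested, threshold 0.05. Fits were tested on simulated counts of 11292 genes: with Actb as covariate 86 of 100 genes changed by 0.25 and 98 of 100 changed by 0.5 were recovered, and for the sets of libraries 37 of 100 and 88 of 100. The chi-square test took genes averaging 10 counts or more. P-values of the fits and permutations measure the spread between the libraries of these 27 rats. Each rat gave 1 library, so rat, dissection and library preparation cannot be told apart. Those of the chi-square test are set against counting error. No 2 libraries agreed within sampling noise (lowest chi-square per gene 2.55). Without molecular identifiers, intervals and floors cover counting error only.

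Genes named by rule are the 10 genes, Gapdh, the 5 most and least like Actb by rho (genes averaging 100 normalized counts or more), and the highest and lowest rho of each list. Further genes of the lists were named after their values were seen. A clause on levels per length could not be applied, since no transcript lengths were used. Members and lists were chosen with earlier results of these data known, and library 3 was left out after seeing the data. Sst was left out of the inhibitory score (mean count under 10). Start regions are from RefSeq. Alternatives were other normalizations, tools, filters and sets of libraries.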

Additional observations from a re-analysis of the deposited data

How the results depend on the processing

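No paired analysis was possible because all 27 rats form 1 group. Leaving out library 3 (chosen after seeing the data) cut the genes following Actb from 3041 to 810, or 1164 with the set of libraries added, and the genes following a marker score, summed over 12 scores, from 7580 to 2644. It lowered the SD of Actb from 0.20 to 0.16, and within the libraries from 32 that SD was 0.067. The relations of Actb past the threshold by rho went from 5 to 0 with the set regressed out and to 0 within each set, and were 4 under TMM and 6 under total-count scaling. The median rho of the 36 pairs was 0.47 from 32 on. Several pairs of genes changed sign within the sets: Actb with Tubb4a went from -0.39 to 0.39 and 0.72, Actb with Tubb5 from -0.36 to 0.04 and 0.46, Pfn1 with Tubb4a from -0.59 to 0.40 and 0.11, and Pfn1 with Pfn2 from 0.25 to -0.33 and -0.17. Among the other results, within the libraries from 32 Actb had rho of 0.10 with the total count and -0.22 with Bc1 share, Gapdh with genes detected turned to -0.52 with the set regressed out (adjusted p = 0.045, permutation), Tubb4a on Actb turned to 0.066 with the set added, and Tuba1a on the inhibitory score turned to 0.0018 without library 3. The causes were not tested. The counts of genes following Actb, the library sets and the sum over the 12 marker scores stayed within 1.5 times with DESeq2's size factors, with DESeq2's test and with no filter on low counts, as did the dispersion count under TMM, total-count scaling and no filter. Single scores with few calls moved more: DESeq2's test gave 40 genes in place of 6 for striatal neurons, 170 in place of 90 for microglia, 378 in place of 215 for astrocytes, 192 in place of 110 for oligodendrocyte precursors, 378 in place of 224 for meningeal fibroblasts and 319 in place of 191 for mural cells, no filter gave 18 for striatal neurons and 383 for meningeal fibroblasts, the set as a covariate gave 401 in place of 200 for oligodendrocytes, and leaving out library 3 gave 188 for oligodendrocyte precursors and 11 for striatal neurons. Leaving out the 2 libraries highest in 18S gave 3045 genes following Actb. Library number in place of the set gave 2437 genes against 2072. The share of mitochondrially encoded genes was not run, because the reference used here names none. Depth limits were small for the 9 genes with counts, which had at least 1779 reads in every library.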
